A study of Homo sapiens with 2 samples.

Results

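RRN3 and the factors that start or end RNA polymerase I transcription were examined in a pooled CRISPR knockout screen, through 9 genes chosen by name: RRN3, UBTF, TAF1A, TAF1B, TAF1C, TAF1D, TBP, TTF1 and PTRF. They hold 54 of the 114123 guides in the table for protein-coding genes, 6 guides for each, among 19051 genes. RRN3 was selected on its reads in these same libraries, so its values are given as a description. Its neighbours were added because they start or end transcription by the same polymerase.

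The screen was run in SK-OV-3, an established human ovarian cancer cell line, stably carrying a transgenic reporter of transcriptional readthrough (TRT) in a vector with the EF1a promoter. In the reporter, mCherry and EGFP stand in for most of the coding sequences of COMMD3 and BMI1, and the stretch between these neighbouring genes is kept, so that EGFP is made only when transcription runs past the end of the first gene. All cells received the GeCKO lentiviral guide pool at a low multiplicity of infection and were selected with puromycin. The TRT-negative library was made from cells sorted as mCherry-positive and EGFP-negative, and the control library from the parental, unsorted cells. The control is titled by mCherry and EGFP together, a name that would also suit a double-positive sort. It was read as unsorted because the methods set unsorted cells against the sorted ones, and each ratio depends on this. There was 1 library per condition, so no difference was tested. Intervals of read ratios cover counting error only, since PCR reads are not independent molecules, and intervals of shares of guides treat guides as independent draws within these libraries. A read shows that cells carried a guide, not that its target was disrupted.

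RNA polymerase I makes the ribosomal RNA precursor in the nucleolus. UBTF coats the ribosomal DNA, and the selectivity factor SL1, made of TBP with TAF1A, TAF1B, TAF1C and TAF1D, marks the promoter. RRN3 binds the polymerase and brings it to SL1, and it is switched by growth and stress kinases. TTF1 binds the end of the ribosomal transcription unit and halts the polymerase, and PTRF, now named CAVIN1, was described as the factor that releases the transcript and is also a coat protein of caveolae.

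Guide reads of these 9 genes were sparse in both libraries. At least 1 read was found for 3 of the 54 guides in the control library, or 5.56% (exact Clopper-Pearson 95% interval 1.16% to 15.4%), against 10.5% of all protein-coding guides. In the TRT-negative library 11 of 54 were read, or 20.4% (interval 10.6% to 33.5%), against 22.6%. Both background shares lie within the intervals of the 9 genes. The remaining 43 guides had no read in either library (79.6%, against 76.9% of all protein-coding guides). The 3 guides with control reads were all read again in the TRT-negative library, as were 11354 of all 11943 protein-coding guides with control reads. A further 8 guides were read in the TRT-negative library only (14.8%, against 12.6%). The pool comes in parts A and B with 3 guides per gene each. Of the 27 guides of part A 5 were read in the TRT-negative library (18.5%, against 22.9% of protein-coding guides of that part). Of the 27 of part B 6 were read there (22.2%, against 22.3%). The libraries held 12882989 control and 12444427 TRT-negative reads, and 12956 guide rows were read in the former and 28064 in the latter.

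**Figure D1:**
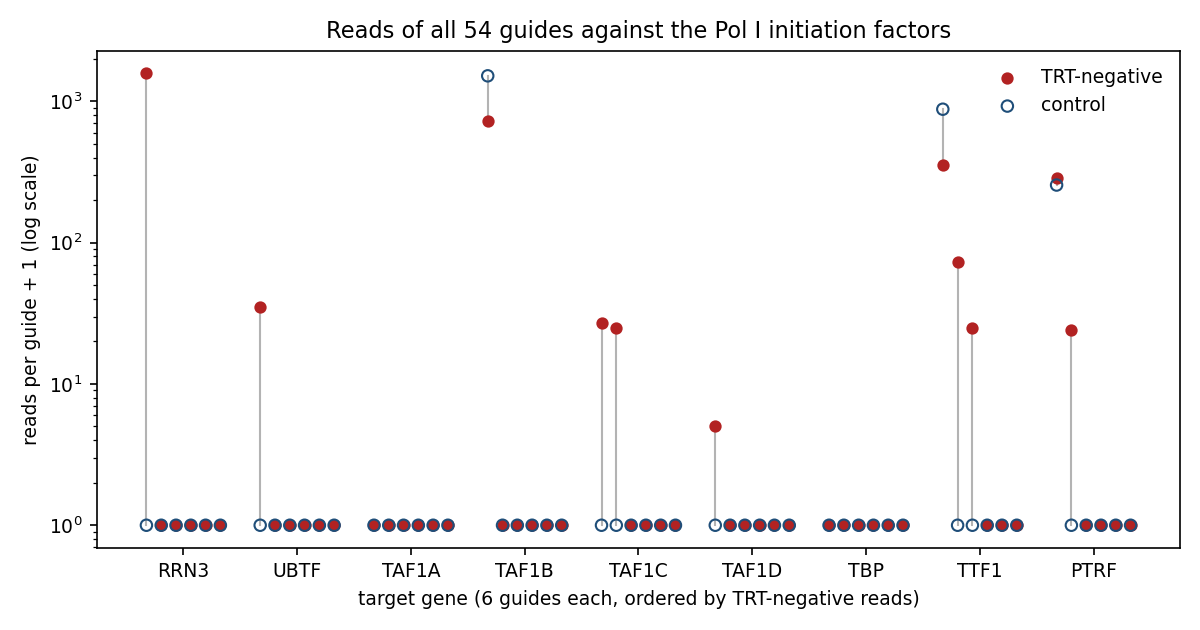
Reads plus 1 on a log axis for each guide of the 9 genes (x axis, 6 guides per gene), with open circles for the control and filled circles for the TRT-negative library, joined by a grey line; guides without reads lie at 1. The single RRN3 guide with reads stands at 1580, TAF1A and TBP have no guide with reads, and the only open circles above 1 belong to TAF1B, TTF1 and PTRF.

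RRN3 lies on the minus strand of chromosome 16 (hg38, chr16:15060033-15094311, ENSG00000085721.13). A single one of its 6 guides was read, with 0 control and 1580 TRT-negative reads, and the other 5 had 0 reads in both libraries. Taking 3 control reads as the floor that a count of 0 allows, its normalized count was at least 547-fold higher in the TRT-negative library. The exact two-sided 95% interval of the same ratio, which is wider on this side, began at 444-fold. On the scale log2((TRT-negative + 1)/(control + 1)) of normalized counts this guide stood at 10.65. It took 0.0127% of the reads of that library, more than 92.5% of the protein-coding guides read there, and held place 1927 among them. Its reads stood out more among guides without control reads than in the library as a whole. Of the 14434 protein-coding guides read in the TRT-negative library only, 3 had more reads, and the median of that class was 35. Only 12 of its guides, or 0.0831%, reached 1000 reads.

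**Figure D2:**
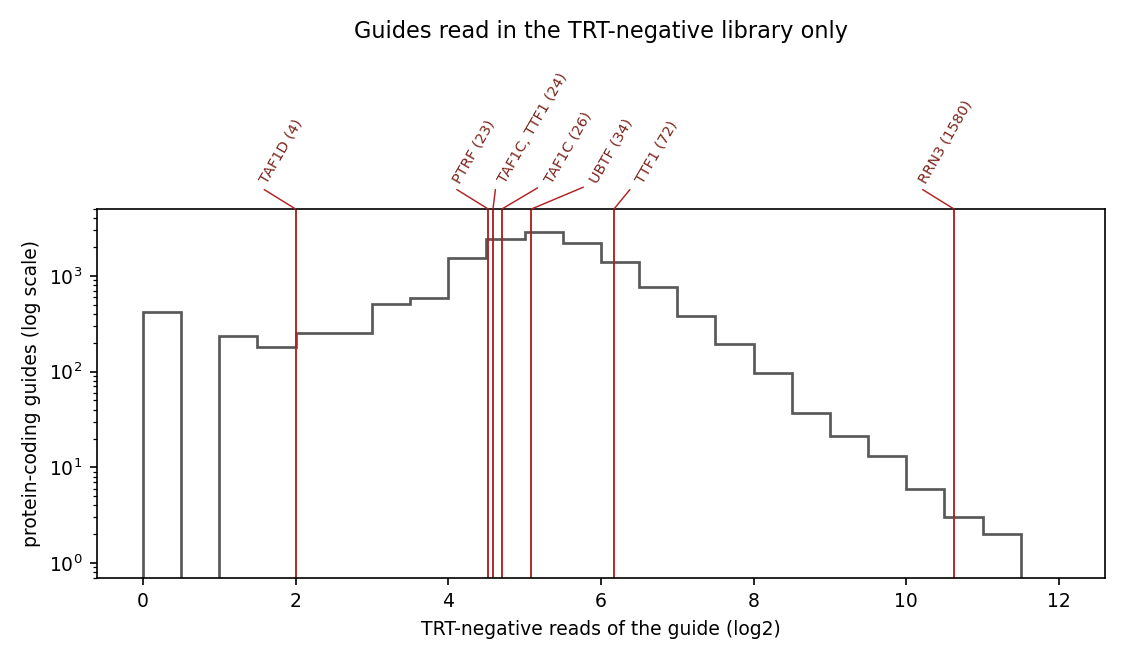
Number of protein-coding guides (log axis) by their TRT-negative reads (log2, x axis), for guides with no control read; red lines mark the 8 guides of RRN3 and the other RNA polymerase I factors, with gene and reads. RRN3 at 1580 reads lies in the far tail. The other 7 lie between 4 and 72 reads, and their median of 24 is below the 35 of all guides counted.

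How far RRN3 stood out depended on how its 6 guides were combined. By its best guide it took place 4 of 19051 protein-coding genes. By its second-best guide it stood at 0.00 on the log2 scale, at place 4883 and tied with the others of 14167 genes at that value. By the mean over 6 guides, 1.78 on the log2 scale, it took place 1612, and its median of 0.00 was that of 17693 genes. The value of RRN3 thus rested on a single guide, with no second guide to set beside it.

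Having 1 guide read, and that guide in the TRT-negative library only, was a frequent state. It held for 3913 of the 18940 protein-coding genes with 6 guides (20.7%), among them RRN3, UBTF and TAF1D. Within this class RRN3 had the most reads, the median was 35 reads and 3 genes reached 1000. The genes closest to RRN3 by the log2 difference of TRT-negative reads, over the 2 libraries, were SLC4A4, a sodium bicarbonate cotransporter, with 1230 reads, and C8orf31 with 1080. They were followed by THEM4, a thioesterase, with 892 reads, C9orf3 with 883 and RBBP4, a histone-binding protein, with 820. The log2 difference from RRN3 was 0.36 for SLC4A4 and 0.95 for RBBP4.

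Parts of RRN3 recur elsewhere in the genome, so the sites that a guide against it could match were counted. Related loci are annotated as RRN3P1 (chr16:21797750-21820384), RRN3P2 (chr16:29074976-29116718), RRN3P3 (chr16:22418672-22437715) and, on chromosome 2, RRN3P4 (chr2:142854095-142855998), as pseudogenes or noncoding RNA genes. The 18 coding exons of RRN3 hold 149 possible sites for the commonly used Cas9, meaning 20 bases followed by NGG on either strand within an exon. For 87 of these (58.4%) the same 20 bases, again followed by NGG, were found at least once more on chromosomes 1 to 22, X and Y. For the other 8 genes together this was so for 34 of 1649 sites (2.06%), 20 of them in UBTF and 12 in TTF1. Of the 12 in TTF1, 8 recurred outside that gene, and the most further matches of a TTF1 site was 1762. No further match was found for any site of TAF1A, TAF1B, TAF1D or PTRF. The RRN3 sites were found again in RRN3P2 in 77 cases, in RRN3P1 in 63, in RRN3P3 in 38 and in RRN3P4 in 3. Of the 87 sites, 22 had 1 further match, 34 had 2 and 31 had 3, and the other 62 sites of RRN3 were found once. All sites of coding exons 2 to 6, 8, 9, 14 and 15 were shared, and none of the 14 and 10 sites of coding exons 11 and 12. One site of each kind is shown, with the bases next to the target that Cas9 requires (NGG) in capitals. The shared one lies in coding exon 14 (minus strand, chr16:15070218-15070240) and recurs at chr16:21799798-21799820 in RRN3P1, chr16:22434775-22434797 in RRN3P3 and chr16:29097146-29097168 in RRN3P2. The other lies in coding exon 11 (minus strand, chr16:15074828-15074850).
RRN3 coding exon 14, shared: gcctagatcttttggttaacTGG
RRN3 coding exon 11, found once: agaaactgaacatgaaacaaAGG
These are sites of the reference genome, and whether either is the target of a guide in the screen was not tested. Guide sequences were not used here, so whether the guide with 1580 reads has matches in these copies was not tested, and neither were sites with mismatches.

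The second promoter factor, UBTF (chr17:44205033-44221626), had 1 guide read, with 0 control and 34 TRT-negative reads. It lay near the middle of its class, as 47.6% of protein-coding guides read in the TRT-negative library only had fewer reads. Of its 287 possible Cas9 sites 20 recurred elsewhere, 14 of them in the pseudogene UBTFL11.

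The components of SL1 ranged from no reads to the most abundant control guide of the group. TBP (chr6:170554302-170572870), which is shared with the initiation machineries of RNA polymerases II and III, and TAF1A (chr1:222557902-222589933) had no read for any of 6 guides in either library. This was the case for 4176 of the 18940 protein-coding genes with 6 guides. TAF1D (chr11:93729948-93784391) had 4 TRT-negative and 0 control reads of 1 guide. This is near the floor of 3 reads, and 5.82% of the guides in its class had fewer. For TAF1C (chr16:84177847-84187070) a guide with 26 and another with 24 reads were found after sorting, one from each part of the pool, and 0 control reads. Both lay below the class median of 35. Having a second read guide, TAF1C stood at 4.67 on the log2 scale by its second-best guide, higher than RRN3 at 0.00. Its mean over 6 guides was 1.58, close to the 1.78 of RRN3, although it rested on 50 reads in place of 1580.

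TAF1B (chr2:9843443-9934416), the SL1 subunit related to TFIIB, had 1 guide read, with 1517 control and 722 TRT-negative reads. Its normalized count ratio of TRT-negative to control was 0.494 (interval 0.452 to 0.540). A guide of TTF1, the termination factor (chr9:132375548-132406851), went from 880 to 352 reads, a ratio of 0.415 (interval 0.366 to 0.470). One of PTRF (chr17:42402449-42423256) went from 255 to 288, a ratio of 1.17 (interval 0.987 to 1.39). These were the guides with at least 30 control reads, here called well-read. A ratio of 0.5 or lower was reached by 2 of the 3, those of TAF1B and TTF1, and by 39.3% of all 10616 well-read protein-coding guides, whose median ratio was 0.643. None of the 3 reached a ratio of 2, against 12.1% of all. Of all well-read guides 38.7% had a lower ratio than TAF1B, 29.2% a lower one than TTF1 and 70.7% a lower one than PTRF, so all 3 lay well inside the common range, which ran from 0.169 at the 5th to 3.89 at the 95th percentile. The interval of TAF1B spans 0.5. Scaled on the non-targeting guides, the ratios were 0.606 for TAF1B, 0.509 for TTF1 and 1.44 for PTRF, and none was then at 0.5 or lower. That scaling moved all well-read guides, whose median became 0.789 and of which 28.1% were then at 0.5 or lower.

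**Figure D3:**
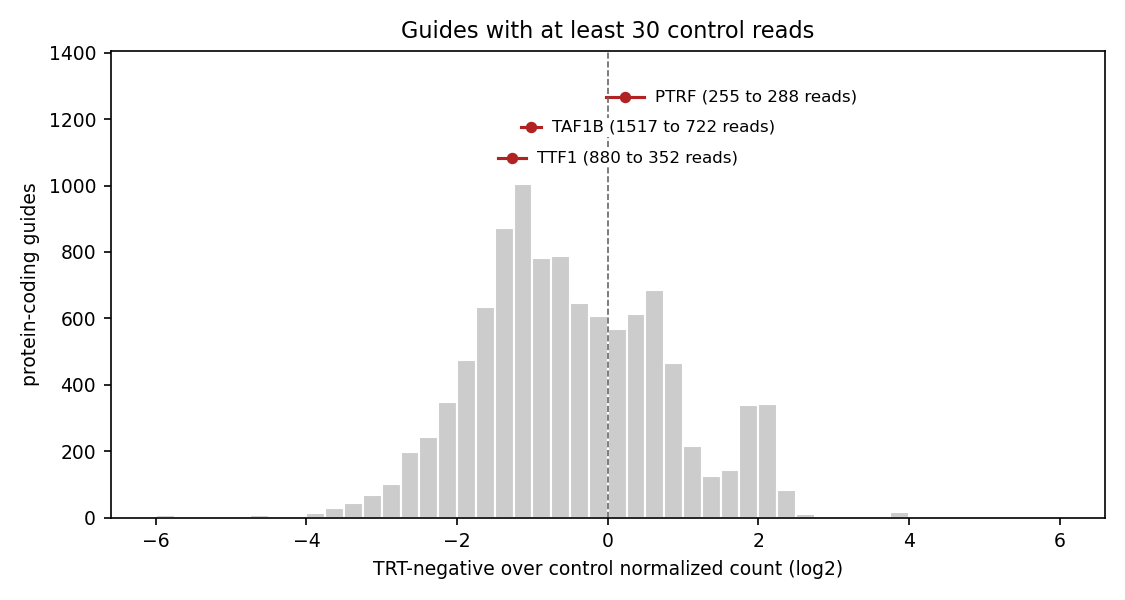
Histogram of the TRT-negative to control ratio of normalized counts (log2, x axis) over protein-coding guides with at least 30 control reads and at least 1 TRT-negative read; red points mark the guides of TTF1, TAF1B and PTRF, with 95% counting intervals at heights without meaning, and the dashed line a ratio of 1. The ratios of 0.415, 0.494 and 1.17 lie in the bulk of the histogram.

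TTF1 and PTRF also showed how guides of the same gene could differ. Beside the guide that went from 880 to 352 reads, TTF1 had guides with 0 control reads and 72 and 24 TRT-negative reads. Its summed reads went from 880 to 448. Beside the guide with 255 and 288 reads, PTRF had one with 0 and 23. With 3 read guides TTF1 had the most of the 9 genes. Exactly 3 guides were read for 11.0% of protein-coding genes with 6 guides. Its mean log2 ratio was 1.60, at place 2249 of 19051.

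Enriched guides were those with a log2 ratio above 5.93, the 95th percentile over 1000 non-targeting guides, which a guide with 0 control reads passed with 60 TRT-negative reads. Of these 1000, 177 had control and 356 TRT-negative reads, larger shares than the 10.5% and 22.6% of protein-coding guides. How often non-targeting guides passed the threshold was fixed in advance, since it is their own 95th percentile. Protein-coding guides as a whole passed it less often. By this rule 2 of 54 guides were called, or 3.70% (interval 0.452% to 12.7%), against 2.87% of all protein-coding guides. They were the RRN3 guide with 1580 reads and the TTF1 guide with 72 reads, just inside the threshold. The next below was the UBTF guide with 34. Without RRN3, which was singled out from these libraries, 1 of 48 guides was called (2.08%, interval 0.0527% to 11.1%). The TTF1 call was lost when the 99th percentile was taken, where 0.499% of protein-coding guides were called. The median log2 ratio was 0.00 over the 54 guides, as over all protein-coding guides. A guide without reads in either library stands at 0.00, and such guides were 79.6% of the 54 and 76.9% of all. This median therefore cannot show a shift.

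Summed over the 9 genes, reads went from 2652 in the control to 3149 in the TRT-negative library. RRN3 held 50.2% of the latter, TAF1B 22.9%, TTF1 14.2% and PTRF 9.88%. Without RRN3 the sum went from 2652 to 1569. The 7 remaining guides read in the TRT-negative library only held 207 reads, with a median of 24, and the RRN3 guide had 21.9-fold the reads of the next, that of TTF1.

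Further genes of ribosomal RNA transcription were taken from 4 lists. Of the 13 polymerase I subunits, including those shared with polymerases II and III, 2 of 78 guides were enriched (2.56%, interval 0.312% to 8.96%), against 2.87% of all. They belonged to POLR2F, a subunit shared by all nuclear polymerases, with 412 reads after sorting on one guide and 32 on another, and to ZNRD1, a polymerase I subunit, with 103, all from 0 control reads. Reads were found for 5.13% of their guides in the control and 14.1% in the TRT-negative library, against 10.5% and 22.6% of all. Of their 3 well-read guides 2 had a ratio of 0.5 or lower, against 39.3% of all well-read guides. Guides read in the control and TRT-negative library made up 6.82% and 17.4% of the kinase and regulator list described below. They made up 15.1% and 28.6% of the ribosomal DNA chromatin list, and 11.9% and 21.4% of the list of relatives by family or name.

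For 22 kinases and other regulators of RRN3, SL1 and UBTF, 5 of 132 guides were enriched (3.79%, interval 1.24% to 8.62%), and the 2.87% of all protein-coding guides lay within the interval. Of 9 well-read guides 2 had a ratio of 0.5 or lower, against 39.3% of all well-read guides. KAT2B, an acetyltransferase known to modify TAF1B, had 4 guides with 0 control reads and 209, 70, 35 and 7 TRT-negative reads. MAPK9 (JNK2), a stress kinase that phosphorylates RRN3, had 1 with 194. The other genes with an enriched guide were MAPK3 (ERK1) with 130 and AKT1 with 83. KAT2B and MAPK9 were named as the 2 genes of the list with most enriched guides, ties going to the highest log2 ratio. MAPK3 and AKT1 were added after their values were seen, so all of these were chosen on values in these libraries.

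For 21 genes of ribosomal DNA chromatin and silencing, 3 of 126 guides were enriched (2.38%, interval 0.494% to 6.80%), against 2.87% of all. CHD7, a chromatin remodeller, had a guide with 94 reads and SUV39H1, a histone methyltransferase, guides with 78, 48 and 20, from 0 control reads. The third enriched guide was that of TOP2B with 71, beside a TOP2B guide that went from 392 to 211. These genes too were chosen on their values, CHD7 and SUV39H1 by the same rule and TOP2B afterwards. Of the 17 well-read guides of this list 10 had a ratio of 0.5 or lower, against 39.3% of all well-read guides. For 7 genes that share a family or a name with one of the 9, 1 of 42 guides was enriched (2.38%, interval 0.0603% to 12.6%), against the same 2.87%. Of their 4 well-read guides 1 had a ratio of 0.5 or lower, against the same 39.3%. The enriched guide was that of SDPR, a cavin like PTRF, with 0 control and 77 TRT-negative reads. Another SDPR guide went from 791 to 3371. TAF1, a subunit of the polymerase II factor TFIID, had a guide with 1352 control and 562 TRT-negative reads, another with 27 and 14, and another with 0 and 37. The median log2 ratio was 0.00 in each of the 4 lists, where most guides had no reads and so stood at 0.00.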

How the data were processed

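Guide cassettes were amplified by PCR from genomic DNA of 1 control and 1 TRT-negative library of SK-OV-3 reporter cells and sequenced. Whole-number read counts of each guide were deposited. The authors' normalized values, a signal, are these counts times 0.982 in the control and times 1.02 in the TRT-negative library. The submitters' processing notes name MAGeCK and hg38; its version is not given in the sources used here. Deposited tables of the authors' own log2 ratios, scores, p-values and ranks were not used.

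The 9 genes and the 4 further lists were chosen with earlier results of these data known. From normalized counts the log2 ratio was computed with a pseudocount of 1 and called against the 95th percentile of 1000 non-targeting guides, each counted once. Ratios of well-read guides (at least 30 control reads) used no pseudocount, and their 95% intervals are exact and binomial, given the sum of both counts. With 1 library per condition no test was made. Named were all guides with reads of the 9 genes, 2 genes per list by most enriched guides and then highest log2 ratio, and 5 genes most like RRN3. Other listed genes with an enriched guide were added after their values were seen. Gene positions and coding exons (Ensembl canonical transcripts) are from GENCODE 44 on hg38, and PTRF was matched to CAVIN1 through RefSeq synonyms. UBTFL1 had no guide in the table. Alternatives were 2 other scalings, pseudocounts of 0.5 and 5, other thresholds, filters on low counts and omission of rows beside identical counts. Calls, intervals and the site search were tested on simulated data. Tools were matplotlib 3.10.9, scipy 1.17.1, pandas 2.3.3 and numpy 2.4.6 under Python 3.11.15.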

Additional observations from a re-analysis of the deposited data

How the results depend on the processing

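The number of enriched guides of the 9 genes, 2, was the same with raw counts, scaling on the non-targeting guides, pseudocounts of 0.5 and 5, and omission of rows beside identical counts. It was 1 (RRN3) with the 99th percentile as threshold (0.499% of all protein-coding guides called), with the 95th percentile over non-targeting guides with reads (0.668%), and, of 11 guides, with guides without reads left out (2.89%). It was 1 (TTF1) without RRN3, a choice made after seeing the data. For the 4 further lists together, 11 enriched guides of 378 became 3 and 4 with the first and second of these thresholds and 4 of 81 with unread guides left out, against the same shares of all guides. The genes still called were POLR2F, KAT2B, MAPK9 and, except with the 99th percentile, MAPK3. No call was left for ribosomal DNA chromatin or for relatives by family or name. The log2 ratio of the RRN3 guide was 8.34 with a pseudocount of 5, which weighs directly on a guide without control reads, and its place among protein-coding guides was 4 under all scalings and pseudocounts tried. The count of well-read guides at a ratio of 0.5 or lower went from 2 to 0 of 3 with scaling on the non-targeting guides, and the share over all well-read guides from 39.3% to 28.1%. The 11 and 3 guides read in the TRT-negative and control library became 10 and 3 when 10 reads were required. A count of 0 allows up to 3 reads of a guide in a library, so no ratio was given for TAF1A and TBP, and why their guides had no reads was not tested. No paired analysis was possible because each condition has 1 library.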
